A study of Macaca mulatta with 7 samples.

Results

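Ionotropic and metabotropic glutamate receptors were followed through 9 genes, chosen by name out of 28966 gene symbols or identifiers in the count matrices. They are the AMPA receptor genes GRIA1, GRIA2, GRIA3 and GRIA4, the NMDA receptor genes GRIN1, GRIN2A and GRIN2B, the kainate receptor gene GRIK1 and the metabotropic receptor gene GRM5. A further 17 glutamate receptor genes found in the matrices served as a comparison list. The question was in which classes of spinal cord nuclei each of the 9 was read, and whether its level below a thoracic injury lay outside the range of intact cord.

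The RNA of single nuclei was counted as unique molecular identifiers (UMIs) in 7 droplet libraries from the spinal cord of adult female rhesus monkeys (Macaca mulatta). Cervical, thoracic and lumbar cord of 1 uninjured, untreated animal aged 5 years gave 3 intact libraries. The other 4 held spared lumbar cord taken about 8 cm below a complete thoracic transection at T9, at 7 days post injury (dpi) and 14 dpi from animals aged 7 years and at 30 dpi and 6 months post injury (mpi) from animals aged 6 years. Each group had 1 library from 1 animal, so time after injury, animal, age and library preparation cannot be told apart, no test between groups was possible, and every interval given here is a 95% interval that covers counting error only. Animals were perfused with saline and the meninges were removed.

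Glutamate is the main excitatory transmitter of the spinal cord. AMPA and kainate receptors are tetrameric channels that carry fast current, NMDA receptors need the GRIN1 product together with GRIN2 or GRIN3 products and pass calcium when glutamate binds a depolarised cell, and mGluR5, the product of GRM5, acts through a G protein and internal calcium stores. Oligodendrocyte precursors (OPCs) and astrocytes also carry glutamate receptors, and OPCs receive direct synaptic input from axons.

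In the ionotropic genes 1 codon of the channel pore sets much of the calcium permeability. In the AMPA and kainate receptor genes of the set it is a glutamine codon, which editing of the RNA can change to arginine, as in GRIA2. In the NMDA receptor genes of the set the matching position holds an asparagine codon. The genomic stretches around it are printed for 6 of the genes to show how alike the family members are at the site that separates their function, with the pore codon in capitals. They are coding exon sequence read in the direction of transcription from the RefSeq annotation of the Mmul_10 genome, in the order chr6:151101405-151101434 on the plus strand for GRIA1, chr5:154983635-154983664 (plus) for GRIA2, chrX:119626829-119626858 (plus) for GRIA3, chr14:99190957-99190986 (plus) for GRIA4, chr3:17090335-17090354 (plus, shown to the end of the exon) for GRIK1 and chr15:1045000-1045029 (minus) for GRIN1.
GRIA1: gggagccttcatgCAGcaaggatgtgacat
GRIA2: gggtgcctttatgCAGcaaggatgcgatat
GRIA3: gggtgcctttatgCAGcaaggatgtgatat
GRIA4: gggtgcttttatgCAGcaaggatgtgacat
GRIK1: tggagctctcatgCAGcaag
GRIN1: gggcgtcctgctcAACtccggcatcgggga

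The 4 AMPA receptor genes shared 26 to 29 of these 30 bases with each other, and GRIA2 and GRIA3 differed at 1 base. GRIN1 shared 10 to 12 of 30 bases with them. All 4 AMPA receptor genes carry the same CAG codon in the genome. The UMIs count transcripts per gene and do not show whether the transcripts of GRIA2 or of any other member were edited.

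The genes lie on 8 chromosomes of Mmul_10. Positions and spans are from the RefSeq annotation, matched by gene symbol, and the identifiers are those of the count matrices. GRIA1 (ENSMMUG00000009287) spans chromosome 6 from 150882479 to 151205169, GRIA2 (ENSMMUG00000018272) chromosome 5 from 154862825 to 155012792, GRIA3 (ENSMMUG00000009054) chromosome X from 119382681 to 119702211 and GRIA4 (ENSMMUG00000010987) chromosome 14 from 98876001 to 99249348. GRIN1 (ENSMMUG00000001661) spans chromosome 15 from 1038753 to 1069570, GRIN2A (ENSMMUG00000010142) chromosome 20 from 9764785 to 10195975 and GRIN2B (ENSMMUG00000019112) chromosome 11 from 14943948 to 15370492. GRIK1 (ENSMMUG00000004886) spans chromosome 3 from 16729174 to 17134850 and GRM5 (ENSMMUG00000010184) chromosome 14 from 81618604 to 82193907. GRIN1 is by far the shortest, at 30.8 kb from first to last base, and the other 8 genes span 150.0 kb (GRIA2) to 575 kb (GRM5).

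After filtering and doublet removal 63726 nuclei were kept, with 45079131 (6 mpi) to 150987900 (intact lumbar) UMIs per deposited library and a median of 3191 (6 mpi) to 7356 (30 dpi) UMIs per nucleus. Pairs of libraries shared 11 to 33 barcodes, at most 0.344% of the smaller library. Classes were rebuilt from fixed marker lists, and the 26 glutamate receptor genes took no part in the clustering. This gave 9874 neuron-like nuclei, 23300 oligodendrocyte-like, 20500 microglia-like, 4254 astrocyte-like, 3942 OPC-like, 623 ependymal-like and 426 T cell-like nuclei, and 807 nuclei stayed unnamed. Each of the 5 large classes held the highest summed level of its own marker list among those 5 classes in all 7 libraries. Levels are CPM, the UMIs of a gene divided by all UMIs of its class in 1 library and put on the usual counts-per-million scale.

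In neuron-like nuclei all 9 genes were read in every library, and OPC-like, astrocyte-like and oligodendrocyte-like nuclei held a part of the set each. OPC-like nuclei had a higher CPM of GRIA4, GRIA2 and GRIA3 than neuron-like nuclei in every library and a level of GRM5 and GRIK1 near that of neurons, but almost no GRIN1 or GRIN2A. Astrocyte-like nuclei carried GRM5 at about the neuronal level, and oligodendrocyte-like nuclei carried mainly GRIA2 and GRIA4. In microglia-like nuclei every member stayed at or below 32.2 CPM.

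**Figure D1:**
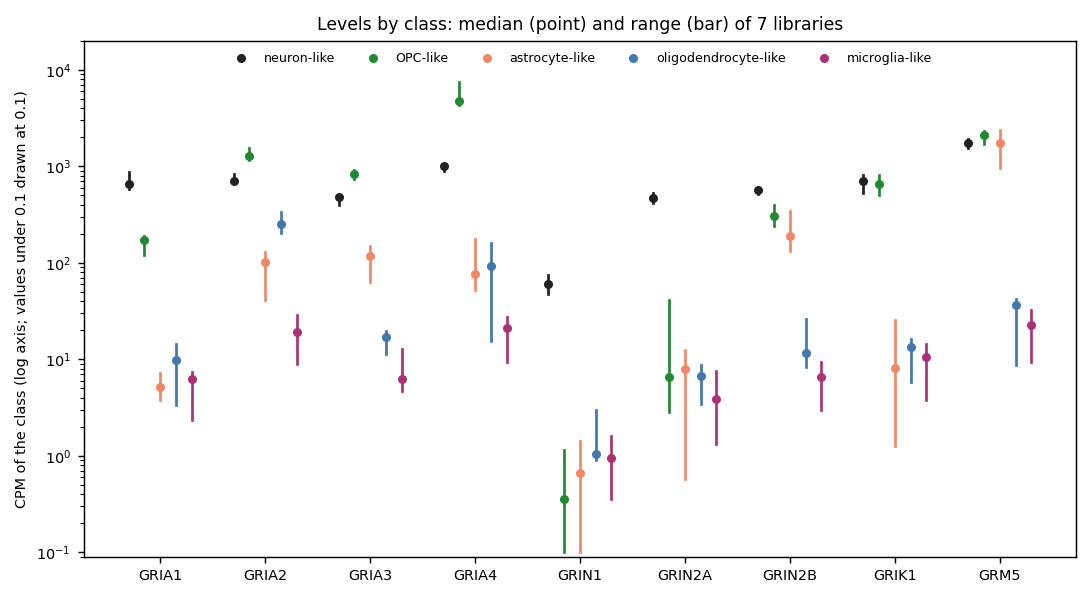
Level of the 9 receptor genes in 5 classes of nuclei, in CPM on a log axis, with the median of the 7 libraries as a point and their range as a bar; values under 0.1 CPM are drawn at 0.1. OPC-like nuclei lie above neuron-like nuclei for GRIA2, GRIA3 and GRIA4, astrocyte-like nuclei reach the neuronal range for GRM5, and GRIN1 and GRIN2A are highest in neuron-like nuclei by over 10-fold at the median.

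RNA released from broken neurons can enter droplets with glial nuclei, so the share of the neuronal level found in glia was set against 12 genes that mark neurons. Their median share of the neuronal level was 1.68 to 5.26% in oligodendrocyte-like nuclei, 8.81 to 12.4% in OPC-like nuclei, 1.86 to 4.08% in astrocyte-like nuclei and 1.297 to 4.63% in microglia-like nuclei over the 7 libraries. GRIA4 in OPC-like nuclei stood at a median of 478% of the neuronal level, GRIA2 at 189% and GRIA3 at 174%. GRM5 stood at 121% in OPC-like and 108% in astrocyte-like nuclei, and GRIA2 at 36.1% and GRIA4 at 9.25% in oligodendrocyte-like nuclei, all above the median share of the neuron genes in 7 of 7 libraries. Set against the highest of the 12 neuron genes, the OPC-like AMPA receptor genes named here were above it in 7 of 7 libraries and GRM5 in 6 of 7 in OPC-like and in astrocyte-like nuclei, but oligodendrocyte-like GRIA2 in 4 and GRIA4 in 1 of 7. At 7 dpi oligodendrocyte-like GRIA4, at 1.71% of the neuronal level, was level with the median share of the neuron genes, 1.68%. GRIN1 and GRIN2A in OPC-like nuclei, at medians of 0.476% and 1.23%, and all 9 genes in microglia-like nuclei, at medians of 0.826 to 2.76%, were at or below that background in most libraries and are read as background there.

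Levels of different genes were set side by side per kb of gene span, a scale chosen because nuclear RNA is rich in introns. Whether UMI counts rise with span was not tested, and the order of the genes depends on this scale. The scale also holds only if intronic reads were counted, which the sources used here do not state. Without them the values per kb and their order would not stand, least of all for GRIN1 with its short span. Per kb, the order in neuron-like nuclei of intact lumbar cord was GRIA2 (4.72 CPM per kb), GRM5 (3.01), GRIA4 (2.74), GRIA1 (2.17), GRIN1 (2.096), GRIK1 (1.74), GRIA3 (1.57), GRIN2B (1.33) and GRIN2A (1.16). On this scale GRIA2 lay apart from all others, with 4.45 to 5.54 CPM per kb over the 7 libraries, whereas the ranges of neighbours from GRM5 down to GRIN2A overlapped over the libraries. In undivided CPM of the same intact lumbar nuclei GRIA2, at 708, lay below GRM5, at 1734, and GRIA4, at 1025. In OPC-like nuclei of intact lumbar cord the order was GRIA4 (11.9 CPM per kb), GRIA2 (7.96), GRM5 (4.01), GRIA3 (2.86), GRIK1 (2.004), GRIN2B (0.695) and GRIA1 (0.592), with GRIN2A at 0.00656 to 0.0963 and GRIN1 at 0 to 0.0374 CPM per kb over the libraries. Per kb, GRM5 led in astrocyte-like nuclei (4.14, against 0.629 for GRIA2) and GRIA2 in oligodendrocyte-like nuclei (1.63, against 0.358 for GRIA4).

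Counted per nucleus after thinning each nucleus to 1000 UMIs, GRM5 was found in 68.5% (66.7 to 70.2) of the neuron-like nuclei of intact lumbar cord, in 85.4% (82.7 to 87.9) of OPC-like and in 74.2% (71.3 to 76.9) of astrocyte-like nuclei, against 3.22% (2.501 to 4.07) of microglia-like nuclei. Without thinning these shares were 94.3%, 99.04%, 94.9% and 8.497%, at median depths of 26752, 5818, 6993 and 3236 UMIs per nucleus. GRIA4 was found in 95.5% (93.7 to 96.9) of thinned OPC-like and 48.1% (46.2 to 49.9) of thinned neuron-like nuclei, so nearly every precursor nucleus carried it. GRIN1 was found in 6.23% (5.37 to 7.19) of thinned neuron-like nuclei (75.5% unthinned) and in 0 of 728 thinned OPC-like nuclei (0.137% unthinned, at the lower depth given above). The binomial interval, up to 0.505%, limits nuclei with a UMI at this depth and not nuclei that carry the transcript. Altogether 11 GRIN1 UMIs were read in the OPC-like nuclei of the 7 libraries.

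Between intact and injured cord the neuronal set was close to flat. No member differed by 2-fold from intact lumbar cord in neuron-like nuclei of any injured library on log2(CPM + 1), where 0.915% of 11256 genes were at least 2-fold higher and 0.569% lower at 7 dpi, 0.657% and 0.657% at 14 dpi, 0.649% and 0.649% at 30 dpi, and 1.49% and 0.729% at 6 mpi. As a second reading, a gene was counted where all 4 injured libraries lay above, or all 4 below, all 3 intact ones. By this reading 0 of 9 members lay above (8.55% of all genes did) and 1 of 9, GRIN1, lay below (11.7% of all genes did), a share near that of the background. The median log2 ratio of the 9 members to intact lumbar cord was -0.18, -0.02, -0.09 and -0.08 at 7, 14 and 30 dpi and 6 mpi, beside 0.04, -0.04, -0.02 and 0.04 over all 11256 genes.

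**Figure D2:**
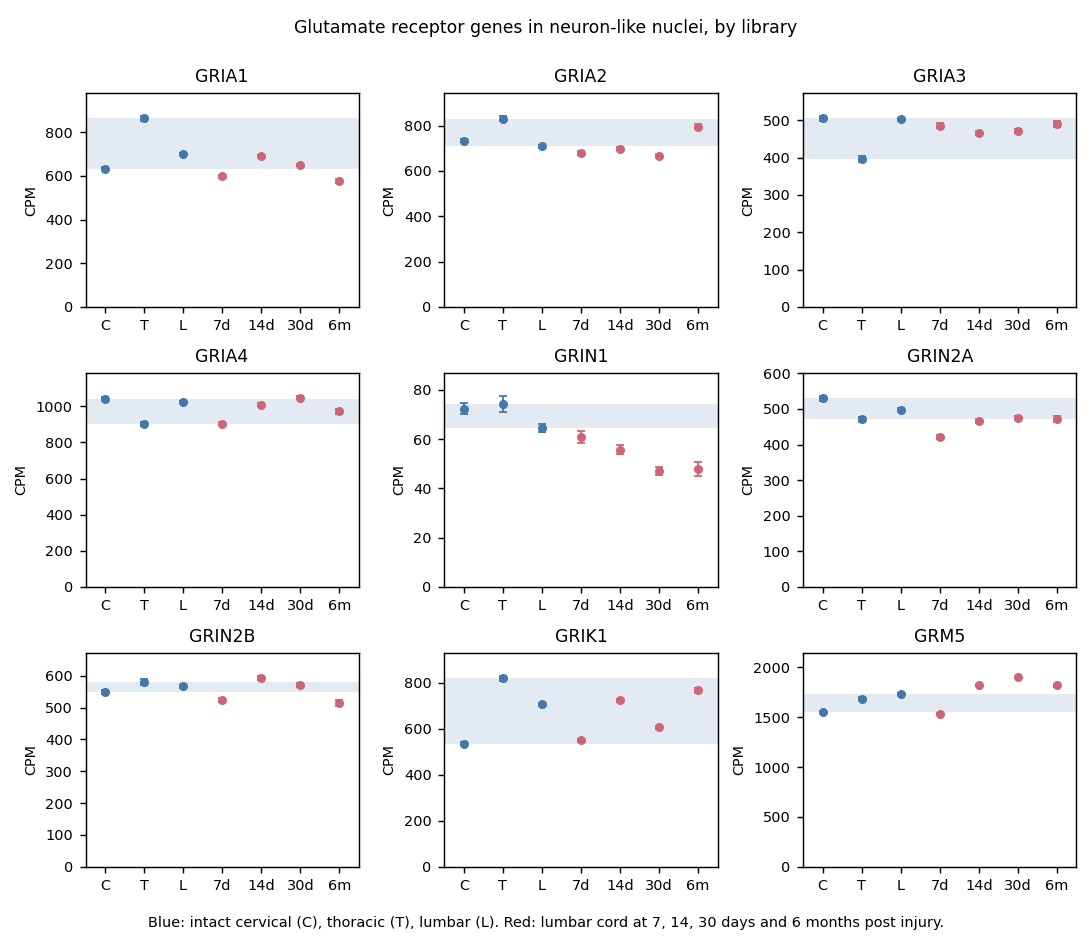
Level of each receptor gene in neuron-like nuclei of the 7 libraries, in CPM, with exact 95% Poisson intervals as bars and the range of the 3 intact libraries shaded. Only GRIN1 has all 4 injured libraries below the shaded range, at 46.99 to 60.7 CPM.

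Values are given below for intact cervical, thoracic and lumbar cord, in this order, and then for 7, 14 and 30 dpi and 6 mpi. In neuron-like nuclei the Poisson interval of a member other than GRIN1 reached at most 1.89% to either side of its value, and that of GRIN1 at most 6.06%. The values are those of a mixture of neuron clusters whose make-up differed between libraries. The largest cluster, with 330 CPM of GRIK1 and 1080 CPM of GRM5, held 185 of 788 neuron-like nuclei in intact thoracic cord. It held 1079 of 2825 in intact lumbar cord and 536 of 1201 at 7 dpi. The part of make-up in the levels was not tested. GRIA1, an AMPA receptor gene, measured 634, 863 and 700.5 CPM in intact cord and 598, 691, 649.6 and 575 CPM after injury, with the thoracic library highest and 2 injured libraries below the intact range. GRIA2, whose edited product keeps AMPA receptors from passing calcium, measured 733, 831 and 708 CPM in intact cord and 680.3, 698, 667 and 794 CPM after injury. The 7, 14 and 30 dpi libraries lay just under the intact lumbar value and the 6 mpi library within the intact range. GRIA3 measured 505, 396 and 503 CPM in intact cord and 486, 467, 471 and 490.1 CPM after injury, and GRIA4, which gives AMPA receptors fast kinetics, 1043, 904 and 1025 CPM in intact cord and 904, 1009, 1049 and 972 CPM after injury. For GRIA3 all 4 injured values were inside the intact range, in which the thoracic library was lowest. For GRIA4 the injured values ran from 1 at the lower edge of the intact range (7 dpi) to 1 just above it (30 dpi).

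Of the NMDA receptor genes, GRIN2A and GRIN2B encode the glutamate-binding subunits that set how fast the channel closes. GRIN2A measured 529.9, 470.5 and 498 CPM in intact cord and 421, 467, 475 and 472 CPM after injury, lowest at 7 dpi. GRIN2B measured 550.2, 581 and 567 CPM in intact cord and 524, 593, 569.9 and 515 CPM after injury, with injured values on both sides of the intact range. GRIK1, the kainate receptor gene, measured 535, 818 and 705 CPM in intact cord and 549, 723, 606 and 765 CPM after injury, all 4 injured values lying within the range set by the cervical and thoracic libraries. GRM5 measured 1555, 1685 and 1734 CPM in intact cord and 1532, 1822, 1902 and 1818 CPM after injury. The injured libraries were below the intact range at 7 dpi and above it at the other 3 times, by up to 1.10-fold over intact lumbar cord. The same order was read after thinning each nucleus to 1000 UMIs, but by depth it varied. In nuclei of 40000 UMIs or more GRM5 measured 1466, 1625 and 1606 CPM in intact cord. After injury it measured 1182, 1425, 1736 and 1394 CPM there, so only the 30 dpi library lay above. In nuclei of 20000 to 40000 UMIs 7 dpi fell among the intact values and the later times were above. Under 20000 UMIs both 7 and 30 dpi fell among them. The part of depth was not tested.

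The NMDA receptor needs GRIN1 in every assembly, and this gene measured 72.4, 74.3 and 64.6 CPM in intact cord and 60.7, 55.7, 46.99 and 47.7 CPM after injury in neuron-like nuclei, from 1111 UMIs (6 mpi) to 6052 UMIs (intact lumbar). Every injured library lay below every intact one, and the 30 dpi and 6 mpi libraries lay lowest. The fold of intact lumbar cord was 0.939, 0.862, 0.727 and 0.738, or on the log2 scale -0.09 (-0.16 to -0.02), -0.21 (-0.27 to -0.15), -0.46 (-0.52 to -0.39) and -0.44 (-0.53 to -0.35) with exact conditional intervals. The intact segments alone spanned 64.6 to 74.3 CPM, a wider gap than that between intact lumbar cord and 7 dpi.

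The same split of injured below intact libraries was read in excitatory and inhibitory neurons. Neuron-like nuclei were split by their own UMIs into 2752 nuclei with vesicular glutamate transporter genes of the SLC17 family (SLC17-positive), 4422 with GABA or glycine genes (GAD/SLC6A5-positive), 267 cholinergic nuclei and 2433 that met no rule (unassigned). GRIN1 measured 78.8, 77.3 and 69.3 CPM in intact cord and 65.7, 58.9, 47.8 and 55.9 CPM after injury in SLC17-positive nuclei and 71.2, 74.2 and 63.9 CPM in intact cord and 59.8, 55.8, 46.8 and 41.1 CPM after injury in GAD/SLC6A5-positive nuclei. It measured 72.04, 80.6 and 64.2 CPM in intact cord and 63.4, 57.01, 48.5 and 51.3 CPM after injury in unassigned nuclei and 53.8, 48.5 and 43.8 CPM in intact cord and 37.8, 33.7, 36.2 and 34.7 CPM after injury in cholinergic nuclei. In each of the 4 groups all 4 injured values lay below all 3 intact values. The groups divide the nuclei in which GRIN1 was picked out, from the same libraries, so this is not an independent reading.

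GRIN1 was the only member below the intact range in SLC17-positive nuclei, where 11.1% of genes were below and 7.74% above, in GAD/SLC6A5-positive nuclei, with 11.1% below and 8.39% above, and in unassigned nuclei, with 7.72% below and 6.02% above. No member was above in these 3 groups. In cholinergic nuclei 0 members were above (5.87% of genes were) and 3 were below (6.04% of genes were), from 17 nuclei at 6 mpi to 73 in intact lumbar cord. Beside GRIN1 these were GRIA2, with 664, 607 and 609.7 CPM in intact cord and 570.4, 502, 482 and 536 CPM after injury, and GRIN2A, with 533, 561 and 496 CPM in intact cord and 393, 421, 456 and 236 CPM after injury. The lowest cholinergic GRIN2A value came from the library with the fewest such nuclei. The cholinergic group also mixes nuclei of several clusters, and its make-up by library was not counted.

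The GRIN1 reading was repeated at matched depth. Thinning draws UMIs at random, so the expected share of a gene within a nucleus stays as it was. It gives each nucleus the same weight, whereas the unthinned CPM weights nuclei by their UMIs, and it widens the counting error. With each nucleus thinned to 1000 UMIs, GRIN1 measured 60.3, 74.9 and 63.4 CPM in intact cord and 67.4, 65.5, 45.4 and 62.5 CPM after injury, from 53 to 179 UMIs per library, and only the 30 dpi library stayed under the intact range. At this depth the intervals were wide, 34.5 to 58.7 CPM at 30 dpi and 46.8 to 81.8 CPM at 6 mpi, and the latter included the value read without thinning. In neuron-like nuclei of under 20000 UMIs it measured 59.9, 80.1 and 59.5 CPM in intact cord and 62.1, 64.5, 44.1 and 55.4 CPM after injury, so the groups overlapped. In nuclei of 20000 to 40000 UMIs it measured 73.5, 76.1 and 64.4 CPM in intact cord and 61.5, 58.5, 49.3 and 49.2 CPM after injury, and in those of 40000 UMIs or more 73.01, 72.8 and 65.97 CPM in intact cord and 59.6, 51.95, 46.3 and 41.97 CPM after injury. In these deeper nuclei the injured libraries lay below the intact ones at every time. The median neuron-like nucleus held 21617.5 UMIs at 6 mpi and 39118 at 30 dpi, the shallowest and the deepest of the 7 libraries and the ones with the lowest GRIN1 levels, and the part of depth in the difference was not tested. Of 2803 genes spanning 20 to 50 kb, the length class of GRIN1, 11.5% lay below the intact range in neuron-like nuclei and 8.42% above.

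**Figure D3:**
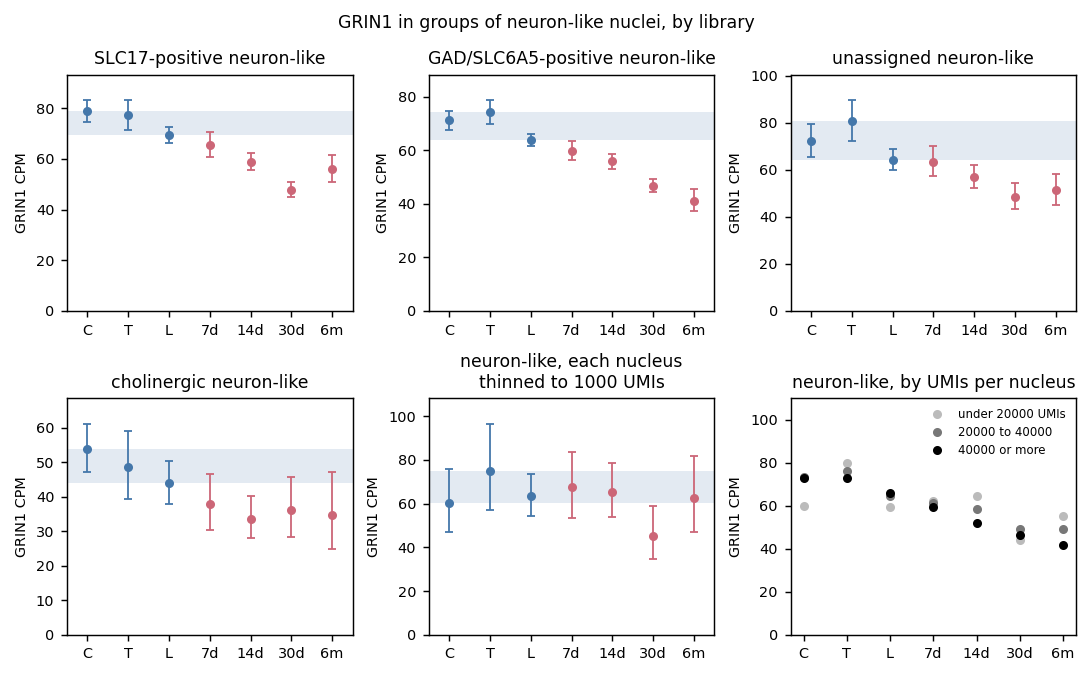
GRIN1 level in CPM by library (C, T and L, intact cervical, thoracic and lumbar; 7d, 14d and 30d, days post injury; 6m, 6 months post injury) in 4 groups of neuron-like nuclei, after thinning, and by UMIs per nucleus, with exact 95% Poisson intervals in the first 5 panels and the intact range shaded. The injured libraries lie under the shaded range in the 4 groups, and overlap it after thinning and in nuclei under 20000 UMIs.

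For some members excitatory and inhibitory neurons differed by more than any injured library differed from intact lumbar cord. GRIK1 was 4.42-fold higher in GAD/SLC6A5-positive than in SLC17-positive nuclei at the median of the 7 libraries, and the difference ran from 2.86-fold (7 dpi) to 5.92-fold (intact thoracic). It measured 961, 1331 and 1087 CPM in intact cord and 801, 1206, 951 and 1273 CPM after injury in GAD/SLC6A5-positive nuclei against 201, 225 and 283 CPM in intact cord and 280.4, 273, 230.1 and 254 CPM after injury in SLC17-positive nuclei. GRIA1 was 1.78-fold higher (1.62 to 2.25) and GRM5 1.66-fold higher (1.56 to 1.69) in GAD/SLC6A5-positive nuclei. These 3 genes were higher there in 7 of 7 libraries and the ranges of the 2 groups did not overlap. The difference is between group values and did not hold for every cluster. A cluster of 202 nuclei with GAD2 and SLC6A5 UMIs, with NPY among its leading genes, had 128 CPM of GRIK1 and 910 CPM of GRM5. A cluster of 266 nuclei with SLC17A6 UMIs had 560 CPM of GRIK1 and 2566 CPM of GRM5.

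GRIA1 measured 809, 1153 and 863 CPM in intact cord and 735, 927, 769 and 735 CPM after injury in GAD/SLC6A5-positive nuclei and 455, 512 and 492 CPM in intact cord and 397, 478, 476 and 428 CPM after injury in SLC17-positive nuclei. GRM5 measured 2089.8, 2151 and 2180.4 CPM in intact cord and 1905, 2291, 2317 and 2338 CPM after injury and 1236, 1296 and 1296 CPM in intact cord and 1148, 1439, 1445 and 1496 CPM after injury in the same groups. GRIA2 went the other way, and was 1.30-fold higher (1.20 to 1.40) in SLC17-positive nuclei in 7 of 7 libraries. It measured 795, 917 and 769 CPM in intact cord and 674, 772, 740.4 and 852 CPM after injury in SLC17-positive nuclei against 616, 656 and 598 CPM in intact cord and 563, 575, 569.9 and 648 CPM after injury in GAD/SLC6A5-positive nuclei. GRIN2B and GRIN1 were higher in SLC17-positive nuclei in 7 of 7 libraries as well, but by medians of 1.09-fold for each, with intervals that included no difference in 2 libraries for GRIN2B and in 4 for GRIN1. GRIA3, GRIA4 and GRIN2A were higher in GAD/SLC6A5-positive nuclei in 6, 4 and 4 of 7 libraries and differed by at most 1.24-fold in any.

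**Figure D4:**
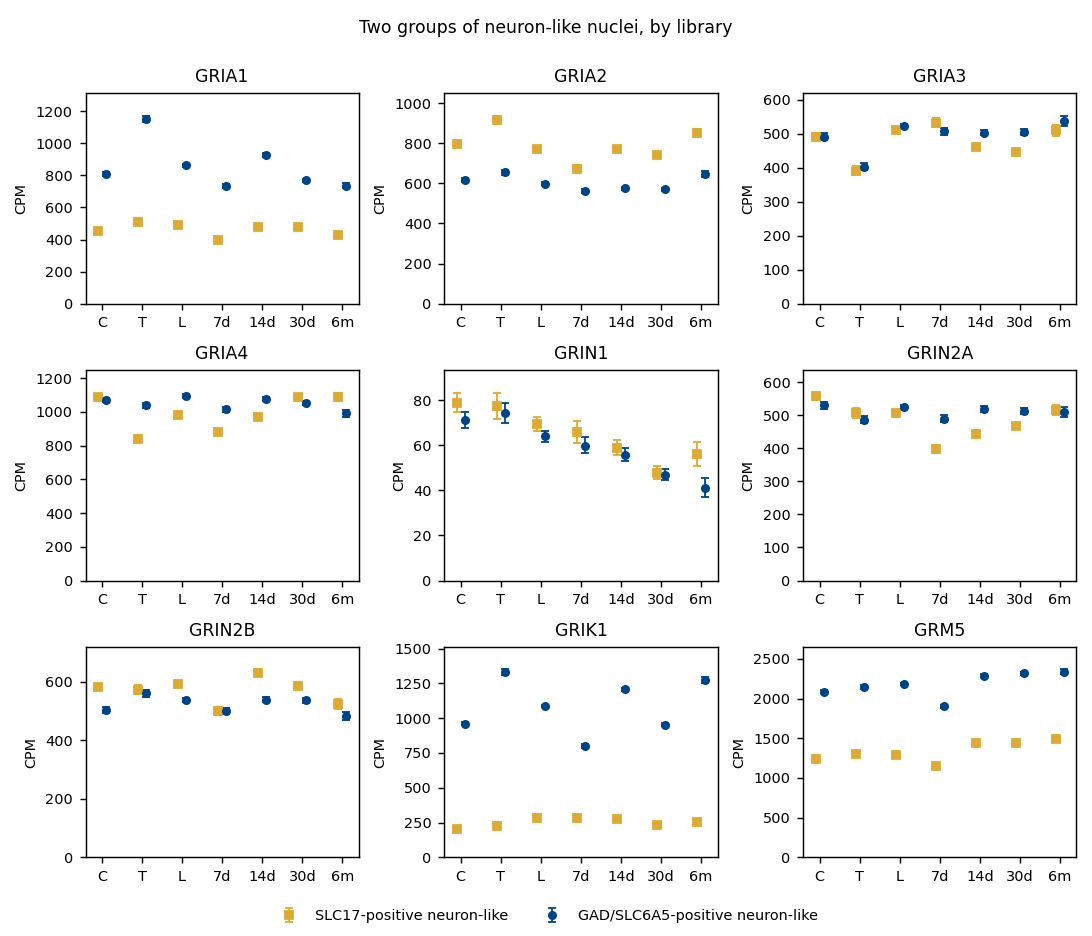
Level of each receptor gene in SLC17-positive (squares) and GAD/SLC6A5-positive (circles) neuron-like nuclei by library, in CPM with exact 95% Poisson intervals. GRIK1, GRIA1 and GRM5 are higher in GAD/SLC6A5-positive nuclei and GRIA2 in SLC17-positive nuclei in all 7 libraries, injured or intact.

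Cholinergic nuclei, where motor neurons would fall, were named by UMIs of CHAT, SLC5A7 and SLC18A3 and not by cluster. They numbered 267, against 111 nuclei in the cluster with the most CHAT, so the class also held nuclei of other clusters. Its make-up by library was not counted, and its values are those of a mixture. Cholinergic nuclei carried GRIA4 at 1311, 1241 and 1344 CPM in intact cord and 1073, 1627, 1686 and 1658 CPM after injury. These are the highest GRIA4 values of the 3 transmitter groups in all 7 libraries. Their GRIA1, at 271 to 539 CPM, was below that of GAD/SLC6A5-positive nuclei of the same library in each case. GRIK1 ranged from 75.1 to 981 CPM and GRM5 from 249 to 1146 CPM in cholinergic nuclei, from 17 to 73 nuclei per library. Both were below GAD/SLC6A5-positive nuclei of the same library in 7 of 7 libraries. GRM5 was also below SLC17-positive nuclei in 7 of 7, whereas GRIK1 lay on either side of them. Of the summed GRIN2A and GRIN2B UMIs, GRIN2A took 52.4, 50.2 and 49.6% in intact cord and 45.8, 48.2, 45.8 and 38.6% after injury in cholinergic nuclei. In all neuron-like nuclei it took 49.1, 44.7 and 46.8% in intact cord and 44.6, 44.02, 45.5 and 47.8% after injury, and GRIA2 took 25.2, 27.8 and 24.1% in intact cord and 25.5, 24.4, 23.5 and 28.1% after injury of the UMIs of the 4 AMPA receptor genes. These shares are not corrected for gene length, so they compare libraries and not genes. Neither of the shares over all neuron-like nuclei separated injured from intact cord.

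The spread between clusters of neuron-like nuclei was wider still. Over 13 clusters GRIK1 ranged from 14.98 to 3546 CPM, 237-fold, and GRIN2A from 18.4 to 1512 CPM, 82.3-fold. These folds are of values pooled over libraries and rest on low values that varied between libraries, for GRIN2A from 2.44 to 44.9 CPM. GRIA1 ranged 43.7-fold, from 49.2 to 2151 CPM, GRIA4 22.7-fold, from 61.4 to 1396 CPM, and GRM5 21.6-fold, from 229.7 to 4959 CPM. GRIA3 ranged 7.32-fold, GRIA2 4.55-fold, GRIN2B 2.56-fold and GRIN1 2.16-fold. GRIN1, the gene that every NMDA receptor needs, had the narrowest range between clusters.

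GRIK1 and GRIA1 were highest in the same cluster, of 722 nuclei with GAD2 and SLC6A5 UMIs and led by PDYN, the dynorphin precursor gene. There GRIK1 was at 2970.0 to 4354 CPM over the libraries and GRIA1 at 1882 to 2224 CPM. GRIK1 was lowest in a cluster of 593 nuclei led by NMU and TAC3, which encode neuropeptides of dorsal horn neurons, at 0.607 to 118 CPM over the libraries. By pooled values GRM5 was highest in 707 nuclei with GAD2 UMIs led by CADPS2 and GBX1, at 4411 to 5219.5 CPM over the libraries. By pooled values GRIN2A and GRIA2 were highest in 701 nuclei with SLC17A6 UMIs led by SLCO5A1, the cluster in which GRIA3 was lowest. GRIN2A and GRIA4 were lowest in 569 nuclei led by NMUR2 with SST, the somatostatin gene, among the leading genes. For each of these ranks, and for the lowest GRIK1, the range over the libraries overlapped that of another cluster. The lowest pooled GRIA3, 103.3 CPM, was nearly tied with the 103.9 CPM of the NMU and TAC3 cluster. The cluster of 111 nuclei with the most CHAT had the lowest pooled GRIA1, GRIN1 and GRM5 and the highest pooled GRIA3, at a median of 101911 UMIs per nucleus. For GRIN1, GRM5 and GRIA3 its range over the libraries overlapped that of the next cluster, and for GRIA1 it did not.

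In OPC-like nuclei, the precursors of oligodendrocytes, GRIA4 measured 4534, 4764 and 4428 CPM in intact cord and 4933, 7396, 5017 and 4342 CPM after injury. The 14 dpi library stood apart at 1.67-fold of intact lumbar cord, or 0.74 (0.71 to 0.77) on the log2 scale, and the 6 mpi value lay just below the intact range. GRIA2 measured 1163, 1247 and 1194 CPM in intact cord and 1283, 1535, 1356 and 1548 CPM after injury, and GRIN2B measured 243, 279 and 296 CPM in intact cord and 399, 376, 316 and 307 CPM after injury. Both lay above the intact range at all 4 times, and were 2 members above and 0 below of the 8 that passed the filter on low levels (GRIN1 did not pass), where 7.93% of 10421 genes lay above and 7.24% below. The GRIA2 fold of intact lumbar cord was 1.07, 1.29, 1.14 and 1.297, with all 4 log2 intervals above 0. The GRIN2B fold was 1.35, 1.27, 1.06 and 1.04, and the log2 intervals at 30 dpi, 0.09 (-0.02 to 0.20), and at 6 mpi, 0.05 (-0.14 to 0.24), included 0.

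The readings depended on the scaling. With each library centred on the level of its median gene, log2 ratios against intact lumbar nuclei were -0.03, 0.32, 0.12 and 0.13 for GRIA2 and 0.29, 0.30, 0.03 and -0.19 for GRIN2B, and neither gene stayed above the intact range at all 4 times. With each library centred on the median ratio of all genes they were 0.04, 0.36, 0.17 and 0.24 and 0.36, 0.34, 0.08 and -0.08, and GRIA2 alone stayed above. On the uncentred scale GRIA2 no longer lay above at all 4 times without doublet removal and at clustering resolution 2. Nuclei were few after injury, 223 to 334 per library against 688 to 1432 in intact cord. An unnamed cluster that scored best for OPC markers was left out of the class, with 68 of its 154 nuclei from 7 dpi. Pooled over libraries it carried 826 CPM of GRIA2 and 189 CPM of GRIN2B, below the class value in every library. A count with this cluster included was not run. The summed level of the 8 neuron markers in OPC-like nuclei was 3422 to 3942 CPM in intact cord and 2984 to 3563 CPM after injury. One of them, SYT1, measured 313, 448 and 404 CPM in intact cord and 18.4, 27.5, 251 and 24.04 CPM after injury, lower in all 4 injured libraries, whereas SNAP25 measured 108, 98.6 and 143 CPM in intact cord and 132, 127, 122 and 173 CPM after injury. The sum of 7 oligodendrocyte markers in OPC-like nuclei was 288 to 1236 CPM in intact cord and 270 to 1711 CPM after injury. One of them, MBP, measured 709, 649 and 103 CPM in intact cord and 137, 118, 986 and 507 CPM after injury. The part of neuronal or oligodendrocyte RNA in the receptor levels was not tested.

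The other OPC members overlapped between groups. GRIA3 measured 730.0, 863 and 914 CPM in intact cord and 836, 813, 798 and 903 CPM after injury, and GRIK1 measured 635, 704 and 813 CPM in intact cord and 650.0, 505, 503 and 762 CPM after injury. GRM5 measured 2094, 2036 and 2305 CPM in intact cord and 2140.0, 1871, 2185 and 1704 CPM after injury, with the 6 mpi library lowest. GRIA1 measured 174, 179 and 191 CPM in intact cord and 165, 129, 122 and 185 CPM after injury, lower at 7, 14 and 30 dpi than in any intact library and inside the intact range at 6 mpi. GRIN2A stood at 2.83 to 7.88 CPM in 6 libraries and at 41.5 CPM at 6 mpi.

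In oligodendrocyte-like nuclei, the myelinating cells, 2 AMPA receptor genes lay on opposite sides of the intact range. GRIA4 measured 159, 148 and 134 CPM in intact cord and 15.5, 93.3, 61.96 and 76.8 CPM after injury, below every intact library at all 4 times, and GRIA2 measured 222, 203 and 245 CPM in intact cord and 263, 252, 319.8 and 338 CPM after injury, above every intact library at all 4 times. The GRIA4 fold of intact lumbar cord was 0.116, 0.698, 0.463 and 0.574, or -3.11 (-3.28 to -2.95), -0.52 (-0.61 to -0.43), -1.11 (-1.19 to -1.03) and -0.80 (-0.91 to -0.69) on the log2 scale, from 342 to 1765 UMIs per injured library. The 7 dpi library was the lowest by a wide margin, at a level not separated from the background of neuronal RNA. The GRIA2 fold was 1.07, 1.03, 1.31 and 1.38, and its 14 dpi interval, 0.04 (-0.02 to 0.10), included 0.

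They were 1 member above and 1 below of the 8 that passed (GRIN1 did not), where 13.9% of 10056 genes lay above and 10.8% below. GRIA2 no longer separated the groups after thinning to 1000 UMIs or after centring on the median gene or on the median ratio, which was 0.10 (log2) at 7 dpi and 0.12 at 6 mpi, and GRIA4 stayed below in all 3. GRIA4 was found in 13.5% (12.4 to 14.6) of thinned oligodendrocyte-like nuclei of intact lumbar cord and in 1.701% (1.31 to 2.16) at 7 dpi, beside 2.400% (1.79 to 3.15) and 1.09% (0.776 to 1.499) of microglia-like nuclei. Of the UMIs of the 4 AMPA receptor genes in oligodendrocyte-like nuclei, GRIA2 took 55.3, 53.8 and 59.9% in intact cord and 89.7, 66.4, 78.6 and 75.8% after injury, and GRIA4 39.6, 39.2 and 32.7% in intact cord and 5.28, 24.6, 15.2 and 17.2% after injury.

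Different clusters held these nuclei in intact and injured cord. The largest intact cluster, led by OPALIN and OLAH among named genes, took 51.3, 46.6 and 56.2% of oligodendrocyte-like nuclei in intact cord and 0.576 to 14.5% after injury, and it carried 205 CPM of GRIA4 and 439 CPM of GRIA2. The largest injured cluster, led by TRPM1 and CNDP1, took 69.6, 62.9, 67.1 and 58.6% after injury and 0.388 to 1.83% in intact cord, and it carried 60.5 CPM of GRIA4 and 465 CPM of GRIA2. Of 3 further clusters of over 2000, deeper nuclei each, the one of 3076 nuclei was held mainly by intact libraries and carried 114 CPM of GRIA4 and 108 CPM of GRIA2, and the one of 2068 nuclei, with 11.96 to 19.9% of the class in intact cord and 0.0262 to 0.906% after injury, carried 50.5 and 12.1 CPM. The third, of 2627 nuclei and held mainly by injured libraries, carried 13.1 and 64.2 CPM. Pooled over libraries, GRIA4 was lower in the deep cluster held by injured libraries than in both deep clusters held by intact ones, and GRIA2 lay between theirs. Over libraries with at least 10 nuclei in a cluster the ranges overlapped, with 43.3 to 226 CPM of GRIA4 in the largest intact and 16.5 to 303 CPM in the largest injured cluster, and 396 to 711 and 276 to 564 CPM of GRIA2.

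A further cluster of 1250 oligodendrocyte-like nuclei, at a median of 2129 UMIs, had neuron markers as its second list and 490 CPM of GRIA4. It took 3.83 to 8.39% of the class in intact cord and 0.942, 7.43, 4.69 and 7.77% after injury. Without it GRIA4 measured 147, 132 and 109 CPM in intact cord and 11.1, 73.8, 37.9 and 50.9 CPM after injury and GRIA2 216, 198 and 233 CPM in intact cord and 263, 243, 316 and 331 CPM after injury, and both stayed outside the intact range at all 4 times. GRM5 measured 32.9, 34.2 and 42.5 CPM in intact cord and 8.73, 38.98, 36.9 and 41.1 CPM after injury in the whole class and 22.2, 18.1 and 20.4 CPM in intact cord and 6.73, 12.6, 12.5 and 17.5 CPM after injury without that cluster. This is below the intact range at all 4 times, but GRM5 in this class stood at 0.570 to 2.45% of the neuronal level, above the median share of the neuron genes in 0 of 7 libraries, and is read as background. The summed level of 7 OPC markers in the class was 469 to 494 CPM in intact cord and 328 to 510.1 CPM after injury, with 0 of 7 markers below the intact range at all times. LHFPL3 and PDGFRA made up most of this sum, and LHFPL3 was highest at 7 dpi, at 343 CPM. PCDH15, PTPRZ1 and TNR were below every intact library at 7 dpi, at 9.68, 3.94 and 6.06 CPM. At 30 dpi and 6 mpi PCDH15 was above the intact range, at 29.7 and 32.1 CPM. The part of OPC RNA in the GRIA4 level was not tested. The sum of 8 neuron markers was 273, 267 and 347 CPM in intact cord and 187, 383, 326 and 277 CPM after injury. It was lowest at 7 dpi and highest at 14 dpi, and GRIA4 was below the intact range at both times. The part of neuronal RNA in the GRIA4 level of this class was not tested.

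**Figure D5:**
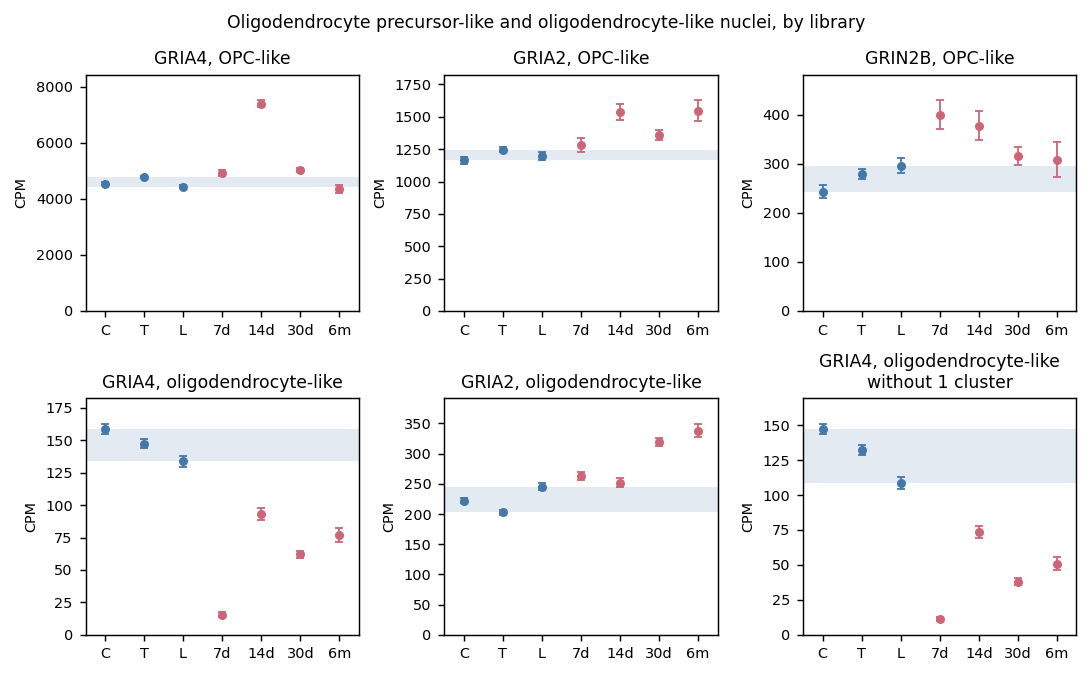
Level in CPM with exact 95% Poisson intervals, by library, of GRIA4, GRIA2 and GRIN2B in OPC-like nuclei and of GRIA4 and GRIA2 in oligodendrocyte-like nuclei, with GRIA4 again after leaving out the cluster whose second marker list was neuronal; the range of the 3 intact libraries is shaded. GRIA4 in oligodendrocyte-like nuclei lies under the shaded range at all 4 times, most at 7 dpi with 15.5 CPM, and at 14 dpi stands above it in OPC-like nuclei.

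Astrocyte-like nuclei take up glutamate and respond to it through mGluR5. Their GRM5 measured 1726, 959.6 and 2382 CPM in intact cord and 1474, 2223, 1126 and 1962 CPM after injury, and the intact thoracic library was lowest. A cluster led by SLC14A1 and ITGB4 carried 814 CPM and a cluster led by ITPRID1 and SLC1A2, a glutamate transporter gene, 2867 CPM, and their ranges over the libraries, 467 to 1280.0 and 2120.5 to 3233 CPM, did not overlap. The second cluster made up 38.6, 15.4 and 47.6% of astrocyte-like nuclei in intact cord and 40.8, 63.8, 32.2 and 66.9% after injury. The class value of GRM5 was lowest in the library with the smallest share of that cluster, but did not follow the share throughout. The 6 mpi library had the largest share, 66.9%, and measured 1962 CPM, below the 2382 CPM of intact lumbar cord with 47.6%. The sum of 7 oligodendrocyte markers in astrocyte-like nuclei was 829, 3186 and 334 CPM in intact cord and 827, 371, 1659 and 2156 CPM after injury. The sum of 8 astrocyte markers was lowest in the intact thoracic and 30 dpi libraries, at 6157 and 8818 CPM, the libraries with the lowest GRM5. The part of cluster make-up or of oligodendrocyte RNA in the class value was not tested.

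GRIN2B in astrocyte-like nuclei measured 190.3, 179 and 159 CPM in intact cord and 218, 343, 215 and 131 CPM after injury, above the intact range at 7, 14 and 30 dpi and below it at 6 mpi. GRIA3 measured 119, 94.9 and 97.7 CPM in intact cord and 117, 128, 150.0 and 62.8 CPM after injury, and GRIA2 measured 103, 106 and 94.3 CPM in intact cord and 109.8, 41.5, 128 and 67.1 CPM after injury. For both genes the injured values lay on either side of the intact range. GRIA4 measured 60.2, 99.9 and 58.1 CPM in intact cord and 76.99, 51.8, 175 and 79.96 CPM after injury, highest at 30 dpi. GRIA1, GRIN2A and GRIK1 did not exceed 25.7 CPM in any library. Of the 8 members that passed, 0 lay above and 0 below the intact range at all 4 times, where 9.84% of 11292 genes lay above and 6.41% below, from 98 to 254 nuclei per injured library.

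In microglia-like nuclei, the resident immune cells, 7 members passed the filter and GRIN1 and GRIN2A did not. None lay above the intact range, where 15.1% of 10329 genes did, and 1, GRIA4, lay below, where 12.3% did. It measured 27.3, 22.4 and 21.4 CPM in intact cord and 9.46, 21.2, 9.74 and 20.9 CPM after injury, a level within the background share of neuronal RNA in 5 of 7 libraries, and the intervals of the ratio to intact lumbar cord included no difference at 14 dpi and 6 mpi. It no longer lay below at all 4 times without doublet removal, at clustering resolution 2, in nuclei of over 2000 UMIs, with no minimum score for a second class, or when centred on the median gene or on the median ratio, each tried alone, and did not pass a filter of 20 CPM. In ependymal-like nuclei, which line the central canal, GRIN2A was read at 103 to 259 CPM (3 to 289 UMIs per library) and GRM5 at 149 to 643 CPM (15 to 284 UMIs), from 6 to 319 nuclei per library. In T cell-like nuclei GRIA2 was read at 24.3 to 149 CPM, from only 3 to 56 UMIs per library. No background share was computed for these 2 small classes, so the values are not read as expression.

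The rest of the receptor machinery was read through 4 lists. In neuron-like nuclei 1 of 14 other glutamate receptor genes that passed the filter lay above the intact range and 2 below, and 0 above and 2 below of 14 auxiliary subunit genes, whose products bind AMPA and kainate receptors. Of 20 postsynaptic scaffold and trafficking genes 0 lay above and 5 below, and of 3 genes of the RNA editing family 0 lay above and 2 below. Over all genes of the class 8.55% lay above and 11.7% below. The gene above was GRID1, a delta receptor gene, with 576, 496 and 556 CPM in intact cord and 614, 621, 592 and 592 CPM after injury. Below lay GRIK3, a second kainate receptor gene, with 123, 117 and 127 CPM in intact cord and 96.5, 105, 95.5 and 87.2 CPM after injury, and SHANK3, a scaffold gene of the postsynaptic density, with 35.7, 37.5 and 32.8 CPM in intact cord and 25.2, 26.6, 25.04 and 25.6 CPM after injury. CAMK2A, a kinase gene of the same structure, measured 96.7, 130.5 and 107 CPM in intact cord and 80.2, 90.3, 70.1 and 82.3 CPM after injury. The editing enzyme gene ADARB1, whose product edits the GRIA2 pore codon and which is named here after its values were seen, measured 159, 153 and 147 CPM in intact cord and 142, 137, 141 and 133 CPM after injury. All 4 injured values lay just under the intact ones.

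In SLC17-positive nuclei the counts above and below were 2 and 0 of 14 other receptor genes, 0 and 4 of 14 auxiliary, 0 and 6 of 20 scaffold and 0 and 2 of 3 editing genes, and in GAD/SLC6A5-positive nuclei 0 and 3, 0 and 1, 0 and 5, and 0 and 0 of the same. Over all genes 7.74% lay above and 11.1% below in the former and 8.39% and 11.1% in the latter. In OPC-like nuclei they were 1 and 1 of 11 auxiliary, 2 and 0 of 18 scaffold and 0 and 0 of 3 editing genes, where 7.93% of all genes lay above and 7.24% below. There NETO1, an auxiliary subunit gene of kainate receptors, measured 156, 164 and 149.6 CPM in intact cord and 82.97, 90.2, 67.9 and 95.1 CPM after injury, below the intact range at all 4 times. The genes above it at all 4 times were HOMER2 and SHANK2 of the scaffold list and CACNG8 of the auxiliary list. For all 4 lists, in the order given, the counts in oligodendrocyte-like nuclei were 1 and 0 of 11, 1 and 0 of 5, 3 and 1 of 18 and 1 and 1 of 3, in astrocyte-like nuclei 1 and 0 of 10, 1 and 1 of 10, 0 and 0 of 18 and 1 and 0 of 3, and in microglia-like nuclei 0 and 0 of 8, 0 and 1 of 2, 3 and 2 of 14 and 1 and 0 of 3. The shares of all genes above and below were 13.9% and 10.8%, 9.84% and 6.41%, and 15.1% and 12.3% in these 3 classes. SHISA9, an AMPA receptor auxiliary subunit gene, measured 268, 96.7 and 266 CPM in intact cord and 1038, 652, 392 and 604 CPM after injury in astrocyte-like nuclei, above the intact range at every time. In SLC17-positive nuclei SHISA9 lay below at every time, with 416, 527 and 437 CPM in intact cord and 343, 382, 350 and 355 CPM after injury. GSG1L, also of the auxiliary list, lay below in astrocyte-like nuclei. It measured 22.9, 28.0 and 12.6 CPM in intact cord and 2.52, 2.84, 7.99 and 0 CPM after injury.

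Over 35 points, the 7 libraries in each of 5 classes, the genes with the pattern most like each member were named by Pearson's r of log2(CPM + 1), as a description. The points share libraries and classes, and differences between classes set most of the value. For AMPA receptor genes they were RIMS2 for GRIA1 (r = 0.994), LRRTM3 for GRIA2 (0.988), DMD for GRIA3 (0.992) and CA10 for GRIA4 (0.976). For NMDA receptor genes they were KCNC2 for GRIN1 (0.985), SKOR2 for GRIN2A (0.963) and ANKFN1 for GRIN2B (0.992). GRIK1 was most like RAB27B (0.992) and GRM5 most like PCDH7 (0.993).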

How the data were processed

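The authors isolated nuclei by dounce homogenization, prepared 1 library per group with 10x Chromium v3 chemistry and aligned reads to Mmul_10 with Cell Ranger 6.0.0. The annotation release and the use of intronic reads are not given in the sources used here. The authors deposited raw UMI counts per gene and barcode, not normalized.

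Kept barcodes exceeded 1000 UMIs and 500 genes, and their hemoglobin share stayed below 5% and their mitochondrial share below 10%, following the study's methods, and the top 5% of Scrublet scores per library were removed. The study used DoubletFinder, which was not rerun. From 2000 variable genes without 26 glutamate receptor genes, 30 components and 20 neighbours gave Leiden clusters (resolution 1, seed 1) without integration. Clusters took the best-scoring of 11 marker lists and stayed unnamed where a second list scored over 0.5 of the best (0.3 where it also led at least 5 of the 10 leading genes) and over 0.2, a minimum set after the clusters had been seen. SLC17-positive and GAD/SLC6A5-positive nuclei had at least 2 UMIs of their genes and 80% of the UMIs of both, and cholinergic nuclei at least 3 UMIs of CHAT, SLC5A7 and SLC18A3.

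Counts required a mean of at least 5 CPM and 50 UMIs in all. Intervals are exact Poisson for levels, exact conditional binomial for ratios and Clopper-Pearson for shares. Genes named from the 4 lists lay outside the intact range, up to 3 per direction and class, ranked by the smallest absolute log2 ratio. The pore stretches of the other NMDA receptor genes and the count of other receptor genes in OPC-like nuclei are not reported here. Steps were tested on simulated counts. Members and lists were chosen with earlier results of these data known. Python 3.11.15, scipy 1.17.1, scanpy 1.11.5 and leidenalg 0.10.2 were used.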

Additional observations from a re-analysis of the deposited data

How the results depend on the processing

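With 1 library per group the intact range holds no spread between animals, and the counts below are of 7 to 9 members each. Members outside the intact range in all injured libraries numbered 1 in neuron-like nuclei (GRIN1), and 2 without doublet removal (with GRIN2A), 0 after thinning to 1000 UMIs and 2 without the 6 mpi library (with GRIA2). In SLC17-positive nuclei they numbered 1, and 0 after thinning, 2 when 1 UMI of 1 transmitter group sufficed (with GRIA1) and 2 without 6 mpi (with GRIN2A). In GAD/SLC6A5-positive nuclei they numbered 1, and 0 after thinning, 2 when each library was centred on its median gene (with GRIA2, 1 when centred on the median ratio), 2 without 14 dpi (with GRIA1) and 2 without 6 mpi (with GRIA2). In oligodendrocyte-like nuclei they numbered 2, and 1, GRIA4, after thinning and under both centrings, and 3 without doublet removal and without the cluster with neuron markers (with GRM5, below) and at resolution 2 (with GRIN2B, above). In OPC-like nuclei they numbered 2, and 1 (GRIN2B) without doublet removal and at resolution 2, 1 (GRIA1, below) when centred on the median gene, 1 (GRIA2) when centred on the median ratio and 4 without 6 mpi. In astrocyte-like nuclei they numbered 0, and 1 without 6 mpi (GRIN2B). In microglia-like nuclei they numbered 1, and 0 without doublet removal, at resolution 2, over 2000 UMIs, at a mean of at least 20 CPM and with no minimum score for a second class, 1 under both centrings, but GRIK1 in place of GRIA4, and 2 without 6 mpi. The cause of these shifts was not tested, and thinning changed both the depth and the weight of each nucleus. Centring, the minimum score, the left-out cluster and the left-out libraries were alternatives chosen after seeing the data. No run left out the 7 dpi or the 30 dpi library. In neuron-like, SLC17-positive and GAD/SLC6A5-positive nuclei GRM5 lay above the intact range in 3 injured libraries and below it at 7 dpi. With nuclei of all depths pooled, leaving out 7 dpi would therefore add GRM5 to the members counted in these groups. Of 36 log2 ratios of members in neuron-like nuclei, 4 changed sign after thinning, 4 against the mean of the 3 intact segments and 3 when centred on the median ratio, all within 2-fold, and 0 under the other alternatives. The largest shift was 0.41, for GRIN1 at 6 mpi after thinning.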

Other observations

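An unnamed cluster of 154 nuclei scored best for OPC markers with Schwann cell markers second, and its leading genes BRCA2, DTL and UHRF1 act in DNA replication and repair. It held GRIA4 at 3180 CPM, GRM5 at 1416 CPM, GRIA2 at 826 CPM and GRIN1 at 0 CPM. Of its nuclei 68 came from the 7 dpi library and 56 from intact thoracic cord, and it belongs to none of the classes described above.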
